A study of Homo sapiens with 26 samples.

Results

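The 4 large tetraploid (4N) clones of DLD1 were compared with the 3 diploid (2N) libraries of the same line. The comparison used 7 of the 26 RNA sequencing libraries of the study, chosen by their labels and not by any measured value. DLD1 is an established human colorectal cancer line, labelled as colon epithelium. The 2N libraries were the parental population, which is not a clone, and 2N clones 1 and 2. The large clones carry a 4N genotype and were made by exposing DLD1 cells to 1.5 µg/mL dihydrocytochalasin, an inhibitor of actin assembly that stops cells from dividing in 2, for 20 hr. After 48 hr of recovery, single cells were grown into clones, and the study distinguishes large from small 4N clones by the size of the cells and nuclei. The labels give no drug for the 2N libraries. They call the clones biological replicates, so each large library is 1 clone that descends from 1 cell, and p values measure the spread between clones together with the parental population. Of the 58735 genes in the table, 11931 reached 1 FPKM (fragments per kilobase of gene, scaled to the depth of the library) in at least 3 of the 10 DLD1 libraries and were tested.

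A cell that copies its DNA and does not divide keeps a doubled chromosome set, and such whole genome doubling is common in colorectal tumours. Doubled cells are known to lose and gain single chromosomes as they grow. A doubling of every gene together leaves each gene's share of the RNA as it was, so values scaled within a library show the relative levels of genes and not the amount of RNA per cell.

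Reads assigned to genes ranged from 23.5 M in large clone 2 to 36.0 M in the parental library, and 1 read in a gene of 1 kb was worth 0.0268 to 0.0400 FPKM. Epithelial markers (EPCAM, CDH1, keratins and claudins) summed to between 2308 and 2747 FPKM in 2N and between 2240 and 2695 in large clones. Of 8 colorectal markers, 4 stayed under 1 FPKM in all 7 libraries, and their sum ran from 65.3 to 72.2 FPKM in 2N and from 43.9 to 123 FPKM in large clones. All 8 fibroblast markers and all 8 neural or muscle markers were under 1 FPKM in all 7 libraries, as were 7 of 8 leukocyte markers and 5 of 8 endothelial markers. The SD of log2 differences between a pair of libraries was 0.294 to 0.365 within 2N, 0.280 to 0.401 within the large clones and 0.287 to 0.456 between the classes. Large clone 2 stood apart from the other large clones, at 0.385 to 0.401.

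No gene passed the test between large and 2N libraries. With limma on log2(FPKM + 1), 0 of 11931 genes (0%) had an adjusted p under 0.05 (Benjamini-Hochberg), and the smallest adjusted p was 0.955. Limma voom on reads recovered from the FPKM values also called 0 genes, with 556 at an unadjusted p under 0.05. In the FPKM fit, 543 genes (4.55%) had an unadjusted p under 0.05. Of those, 228 were higher in large clones (1.91% of tested genes) and 315 lower (2.64%). Chance alone puts about 1 gene in 20 under that p. The 4 large clones did not overlap the 3 2N libraries at 713 genes, 326 higher (2.73%) and 387 lower (3.24%). For a gene without a class difference, the probability of no overlap in either direction is 0.0571 with 4 against 3 libraries. Both totals are close to what chance gives. The median log2 difference over all tested genes was -0.02, and 45.0% of genes were higher in large clones. The median gene had a standard error (SE) of 0.12 and a 95% confidence interval that reached 0.28 to either side of its difference, before adjustment for the number of genes. Differences of the size of that interval and larger also went uncalled, TFF3 and LCN2 among them. Within a class the median SD was 0.152 in large clones and 0.153 in 2N libraries. Only 13 genes differed by a log2 of 1 or more in size between the class means.

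In this contrast none of the genes described from here on passed the threshold over all genes, and their adjusted p values were 0.955 or above. TFF3 (ENSG00000160180, chromosome 21, 42311667 to 42315651, GRCh38), a trefoil peptide that goblet cells secrete with mucus, was the most extreme gene on the lower side. It was at 5.99, 5.68 and 7.17 FPKM in the parental library and 2N clones 1 and 2, and at 2.82, 2.74, 3.20 and 4.06 in large clones 1 to 4. Each large clone was below each 2N library, and the log2 difference was -0.80 ± 0.13 (SE, unadjusted p = 0.000245). PCCA, a mitochondrial enzyme subunit that breaks down propionate, was at 7.15, 4.91 and 5.56 FPKM in 2N and at 3.29, 2.75, 3.73 and 3.38 in large clones (-0.67 ± 0.13, unadjusted p = 0.00085). GSTM3, which joins glutathione to toxic compounds, was at 21.8, 26.4 and 25.6 FPKM in 2N and at 16.3, 14.2, 18.7 and 16.3 in large clones (-0.56 ± 0.11). Those ranges also kept apart.

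The secreted protease gene PRSS23 was at 59.0, 62.5 and 74.4 FPKM in 2N and at 38.2, 46.2, 47.2 and 45.1 in large clones (-0.55 ± 0.12). GLYCTK, a glycerate kinase, was at 5.63, 5.48 and 5.94 FPKM in 2N and at 2.97, 3.44, 4.26 and 3.92 in large clones (-0.53 ± 0.11). SEMA3C, a secreted guidance signal, was at 3.08, 2.05 and 3.01 FPKM in 2N and at 1.33, 1.57, 1.57 and 1.23 in large clones (-0.60 ± 0.13). LCN2 encodes an iron-binding protein that epithelia secrete against bacteria. It was at 1.56, 1.18 and 5.995 FPKM in 2N and at 0.0757, 0.376, 0.163 and 0.214 in large clones (-1.50 ± 0.36, unadjusted p = 0.00308), so the 2N libraries differed among themselves as well. LCN2 was the 1 gene that lay a log2 of 1 or more below the 2N mean in all 4 large clones. No large clone reached 1 FPKM of LCN2, so the gene was tested only because 2N and small libraries did. The mitochondrial MT-ND3 was also among the 8 most extreme genes on this side and is described with the other mitochondrial mRNAs.

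On the higher side, NFAT5 (ENSG00000102908, chromosome 16, 69565094 to 69704666, GRCh38) led. It encodes the transcription factor that answers salt stress and a loss of cell volume. It was at 4.94, 4.22 and 4.80 FPKM in 2N and at 7.01, 7.08, 6.73 and 8.12 in large clones, with a log2 difference of 0.54 ± 0.09 (unadjusted p = 0.000359). CAMK2N2, an inhibitor of a calcium-dependent kinase, was at 0.610, 1.32 and 0.792 FPKM in 2N and at 2.13, 2.38, 1.60 and 2.34 in large clones (0.72 ± 0.16). CDK19, a kinase of the Mediator complex, was at 2.22, 1.87 and 1.88 FPKM in 2N and at 2.999, 2.74, 3.07 and 3.01 in large clones (0.40 ± 0.09). In all 3 genes the lowest large clone was above the highest 2N library.

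PIP5K1C, which makes the membrane lipid PIP2 at adhesion sites, was at 6.08 to 6.78 FPKM in 2N and 8.19 to 8.74 in large clones (0.34 ± 0.08). ZNF609, a zinc finger gene, was at 4.86 to 5.64 FPKM in 2N and 6.80 to 8.30 in large clones (0.42 ± 0.09). VPS13C, a lipid transfer protein, was at 2.02 to 2.27 FPKM in 2N and 2.86 to 3.34 in large clones (0.36 ± 0.09). Both ZNF609 and VPS13C lie on chromosome 15, where large clone 4 was high along the chromosome, and in both the highest library was large clone 4. CNOT1, the scaffold of the complex that shortens mRNA tails, was at 24.1 to 26.4 FPKM in 2N and 29.7 to 33.0 in large clones (0.32 ± 0.08).

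**Figure D1:**
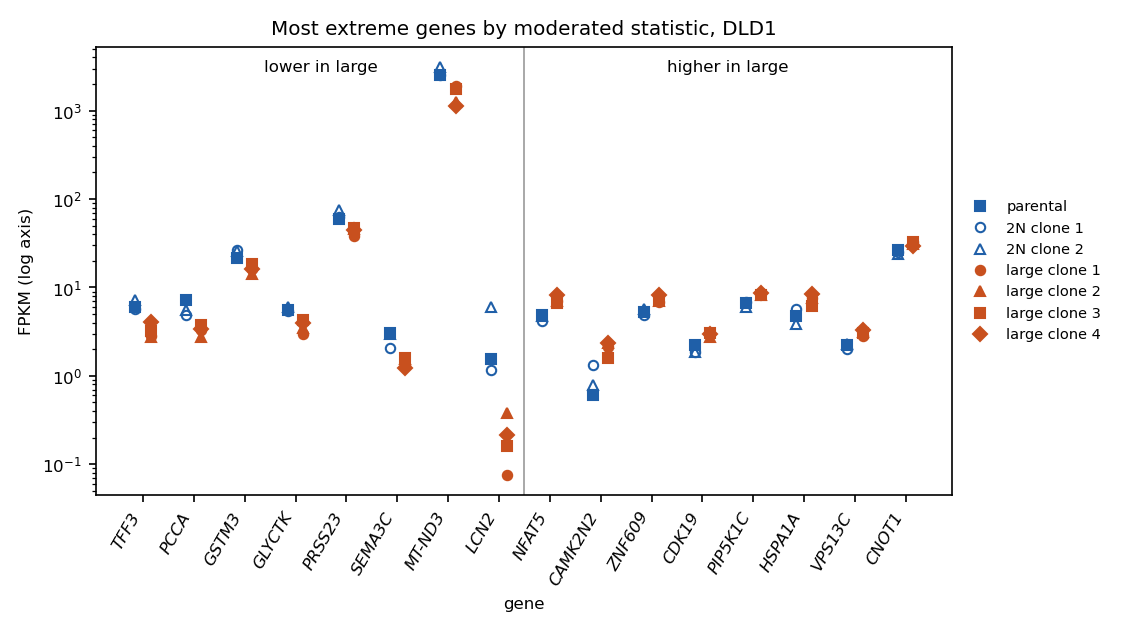
FPKM (log axis) of the 8 lowest and 8 highest genes by moderated statistic, 1 symbol per library, blue for the 3 2N libraries and orange for the 4 large clones. The large clones lie on 1 side of all 2N libraries in each gene, with TFF3 at 2.74 to 4.06 FPKM against 5.68 to 7.17 and NFAT5 at 6.73 to 8.12 against 4.22 to 4.94.

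Further genes without overlap were picked after their values were seen, for the size of their difference. EPS8L3, an actin regulator, was at 11.6, 9.17 and 16.8 FPKM in 2N and at 4.22, 3.99, 7.91 and 7.17 in large clones (-0.99 ± 0.26). MYB, a transcription factor of intestinal progenitor cells, was at 6.76, 5.47 and 5.01 FPKM in 2N and at 1.89, 4.40, 2.60 and 2.91 in large clones (-0.80 ± 0.20). CFTR, the chloride channel of the gut lining, was at 2.90, 1.24 and 1.09 FPKM in 2N and at 0.0518, 0.566, 0.306 and 0.422 in large clones (-0.99 ± 0.24). No large clone reached 1 FPKM of CFTR, so it passed the filter through other DLD1 libraries. For the extracellular matrix gene OLFML3, 1 clone carried most of the difference. Its FPKM was 8.84, 12.1 and 23.6 in 2N and 7.97, 7.34 and 6.47 in large clones 1, 3 and 4, against 0.681 in large clone 2. On the higher side, the kinase gene ICK was at 6.38, 5.20 and 3.97 FPKM in 2N and at 8.89, 17.1, 6.68 and 8.16 in large clones (0.80 ± 0.28). PIK3AP1, an adaptor of the PI3 kinase pathway, was at 0.344 to 0.429 FPKM in 2N and 0.771 to 2.09 in large clones (0.78 ± 0.21). No 2N library reached 1 FPKM of PIK3AP1, so it was tested only because 4N libraries did.

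Gene groups were read as lists of pathway genes, by the number of tested members on each side and the median log2 difference, beside -0.02 over all tested genes. Of 36 lists, 0 held a gene past the threshold, 28 had a median below 0, 27 had a median under 0.1 in size and 2 reached 0.2. Those 2 were the mitochondrially encoded mRNAs at -0.64 and the goblet and enteroendocrine genes at -0.26.

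**Figure D2:**
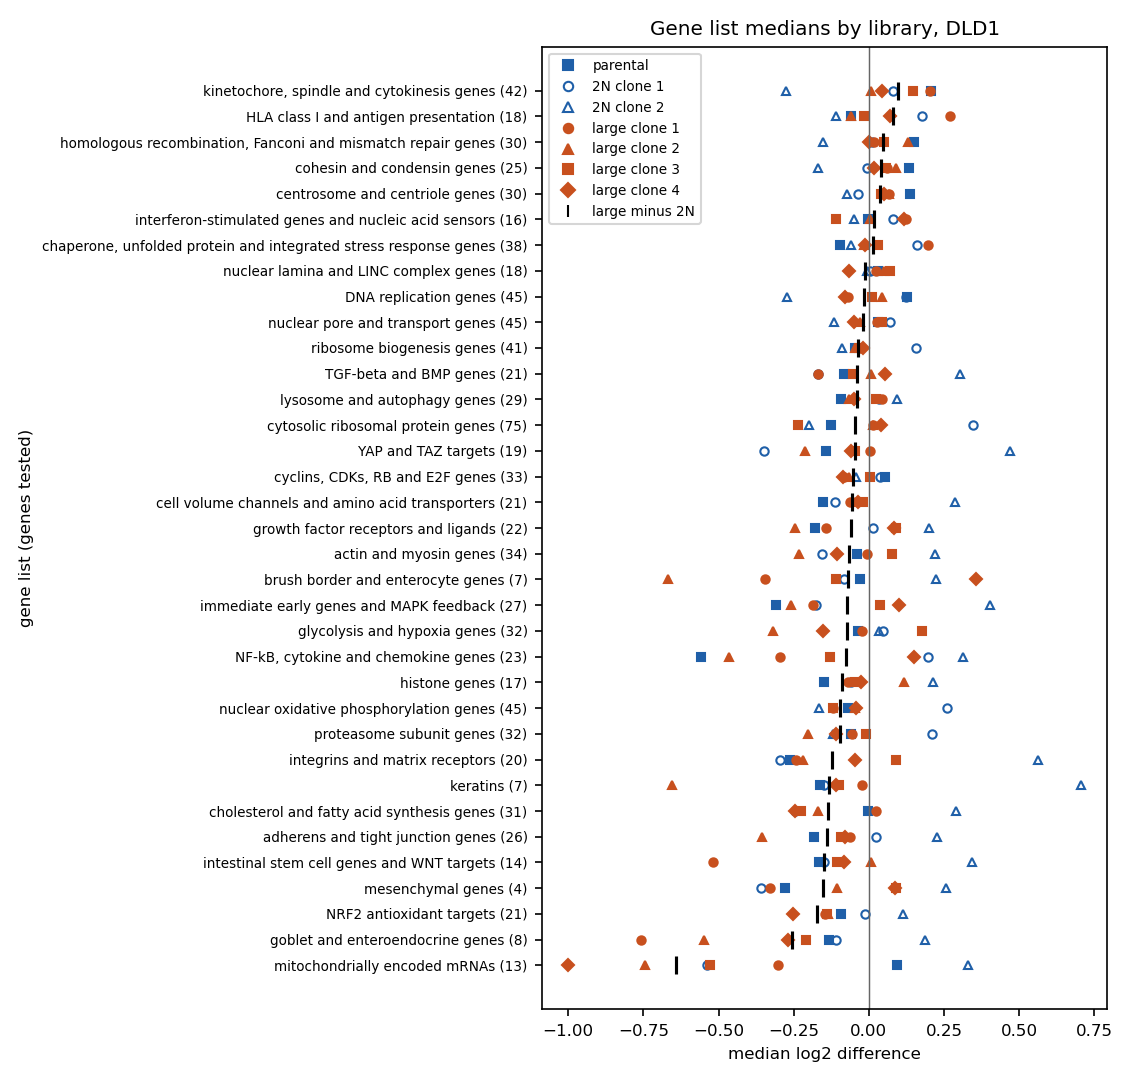
Median log2 difference of 35 gene lists (number of tested genes in brackets), with 1 symbol per library and a black bar for the class difference. Large clones are shown against the mean of the 3 2N libraries and each 2N library against the other 2N libraries, and the mitochondrially encoded mRNAs stand lowest at -0.64.

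Beside 45.0% higher over all tested genes, most of the testable genes of intestinal differentiation had a lower mean in large clones. Their levels ran from under 1 FPKM for VIL1 in most libraries to between 240.4 and 305 FPKM for EZR, which links the membrane to actin. Of 8 goblet and enteroendocrine genes, 7 were lower, 3 of them at an unadjusted p under 0.05, beside 2.64% of all tested genes lower at that p. MUC13, a membrane mucin, was at 3.06, 3.63 and 7.91 FPKM in 2N and at 0.337, 0.606, 0.900 and 3.31 in large clones (-1.43 ± 0.42), and only large clone 4 entered the 2N range. TFF1, another trefoil peptide, was at 7.35, 8.56 and 7.08 FPKM in 2N and at 5.16, 4.504, 5.89 and 3.44 in large clones (-0.61 ± 0.15), with no overlap. Of 7 brush border and enterocyte genes, 6 were lower and the median was -0.07. The other was the keratin gene KRT20, at 3.70, 0 and 10.2 FPKM in 2N and at 41.8, 0.0217, 0.950 and 34.1 in large clones, with high and low libraries in both classes. The brush border list medians were -0.35, -0.67, -0.11 and 0.35 in large clones 1 to 4, so large clone 4 stood above the 2N mean. The parental library and 2N clones 1 and 2 were at -0.03, -0.08 and 0.22 against the other 2N libraries. VIL1, the actin bundler of the brush border, was at 1.81, 0.371 and 0.807 FPKM in 2N and at 0.328, 0.202, 0.206 and 0.482 in large clones (-0.55 ± 0.23), and the ranges overlapped. The 3 small 4N clones had 8.24, 8.99 and 5.22 FPKM of VIL1, above all 7 libraries compared here. Small and large clones are set against the same 2N libraries, so the values are only given side by side.

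Of 14 intestinal stem cell genes and WNT targets, 12 were lower (median -0.15). Their medians in large clones 1 to 4 were -0.52, 0.01, -0.10 and -0.08, so the list was lowest in large clone 1, and 2N clone 2 stood at 0.34 against the other 2N libraries. EPHB2, a receptor that positions cells along the crypt, was at 4.29, 4.00 and 2.70 FPKM in 2N and at 0.817, 2.70, 2.45 and 2.16 in large clones (-0.66 ± 0.25). Large clone 2 and 2N clone 2 were nearly equal there.

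Adherens and tight junction genes, which seal and join epithelial cells, were lower at 19 of 26 (median -0.14), and the lowest large clone was clone 2 at -0.36. CLDN2, a claudin that makes a pore for cations, was at 11.7, 10.8 and 27.5 FPKM in 2N and at 1.30, 1.81, 9.77 and 11.2 in large clones (-1.59 ± 0.64). Its large clones fell into a low and a high pair, and the high pair reached 2N levels. CLDN4 was at 56.5 to 84.2 FPKM in 2N and at 60.02, 30.6, 58.8 and 49.6 in large clones (-0.56 ± 0.24), and CLDN12 at 3.89 to 4.87 and at 2.77 to 3.94 (-0.31 ± 0.12). Both claudin genes lie on chromosome 7, which was low in large clones 2 and 4. CTNNA1, the catenin that ties junctions to actin, was at 33.9 to 41.3 FPKM in 2N and 32.9 to 38.7 in large clones, against 23.4, 2.59 and 2.24 in the small clones. Keratins (4 of 7 lower, median -0.13) and integrins and matrix receptors (14 of 20 lower, median -0.12) had 0 members at an unadjusted p under 0.05, as did actin and myosin genes (25 of 34 lower, median -0.07). MYH9, the main non-muscle myosin, was at 143 to 206 FPKM in 2N and 116 to 171 in large clones.

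For signalling genes, the 2N libraries spread as widely as the large clones. Immediate early and MAPK feedback genes were lower at 16 of 27 (median -0.07), with medians of -0.31, -0.18 and 0.40 for the parental library and 2N clones 1 and 2 against the other 2N libraries. ETV5, a transcription factor downstream of MAPK, was at 3.58 to 4.27 FPKM in 2N and 4.36 to 7.11 in large clones (0.42 ± 0.14), without overlap. IER2 was at 27.8 to 35.7 FPKM in 2N and 22.6 to 29.0 in large clones (-0.32 ± 0.12). FOS was at 15.6, 10.995 and 9.73 FPKM in 2N and at 9.77, 14.7, 10.2 and 11.9 in large clones (-0.04 ± 0.18, 95% confidence interval -0.46 to 0.37). MET, the receptor for hepatocyte growth factor on chromosome 7, was at 23.1, 21.2 and 29.1 FPKM in 2N and at 12.9, 8.54, 22.1 and 17.4 in large clones (-0.71 ± 0.28). BMPR2, a receptor for bone morphogenetic proteins, was at 1.83 to 2.19 FPKM in 2N and 2.59 to 2.997 in large clones (0.31 ± 0.09). Targets of the shape-sensitive coactivators YAP and TAZ were lower at 15 of 19 (median -0.05), and 2N clone 2 stood highest for them at 0.47.

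Genes of antigen presentation and innate immunity lay close to the 2N level. HLA class I and antigen presentation genes were higher at 14 of 18 (median 0.08). HLA-B, which shows peptides to T cells, was at 4.33, 9.75 and 9.16 FPKM in 2N and at 12.9, 6.60, 9.48 and 15.1 in large clones (0.47 ± 0.31), and its partner B2M at 8.77 to 10.5 and 9.81 to 11.4. The small clones had 1.07, 2.14 and 1.79 FPKM of HLA-B. Interferon-stimulated genes and nucleic acid sensors had a median of 0.02 (9 of 16 higher). OAS3, a sensor of double-stranded RNA, was at 25.1 to 29.9 FPKM in 2N and 30.7 to 36.3 in large clones (0.25 ± 0.10). NF-kB, cytokine and chemokine genes were lower at 16 of 23 (median -0.08), but the 2N medians ran from -0.56 in the parental library to 0.31 in 2N clone 2.

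Growth and division genes also differed little. Kinetochore, spindle and cytokinesis genes were higher at 28 of 42 (median 0.10), with 4 members at an unadjusted p under 0.05, all 4 higher and without overlap. Of all tested genes, 1.91% were higher at that p and 2.73% were higher without overlap. CIT, the citron kinase of the dividing furrow, was at 5.02, 3.75 and 4.33 FPKM in 2N and at 6.75, 6.09, 5.40 and 5.79 in large clones (0.39 ± 0.11). KNL1, a scaffold of the kinetochore, was at 5.38 to 6.96 FPKM in 2N and 6.98 to 8.93 in large clones (0.35 ± 0.12). BUB1B, a spindle checkpoint protein, was at 13.9 to 19.7 FPKM in 2N and 19.9 to 22.5 in large clones (0.30 ± 0.12), and the motor gene CENPE at 3.20 to 4.44 and 4.49 to 5.07 (0.29 ± 0.11). In each of the 4 genes the highest 2N library was the parental one. The list medians of the 2N libraries were 0.20 in the parental library, 0.08 in 2N clone 1 and -0.28 in 2N clone 2, a wider range than that of the large clones, 0.01 to 0.20.

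DNA replication genes had a median of -0.02 (24 of 45 lower), cohesin and condensin genes 0.04 (18 of 25 higher), centrosome and centriole genes 0.04 (19 of 30 higher), and cyclins, CDKs, RB and E2F genes -0.05 (19 of 33 lower). RFC2, a replication clamp loader on chromosome 7, was at 25.3 to 31.1 FPKM in 2N and 19.6 to 25.8 in large clones (-0.31 ± 0.12). CCND1, which encodes cyclin D1, was at 232, 218 and 389 FPKM in 2N and at 193, 223, 223 and 199.8 in large clones (-0.37 ± 0.20), and CCND2 stayed at 0.0753 FPKM or lower in all 7 libraries and was not tested. MYC was at 64.1 to 114 FPKM in 2N and 61.7 to 97.0 in large clones (-0.11 ± 0.21). CDKN1A, the p21 brake on the cell cycle, was at 2.98, 2.18 and 12.4 FPKM in 2N and at 1.45, 2.15, 10.0 and 3.25 in large clones, with 1 high library in each class.

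Genes of the nucleus showed no shift beyond their spread. Nuclear lamina and LINC complex genes had a median of -0.01 (10 of 18 lower), nuclear pore and transport genes -0.02 (25 of 45 lower), and histone genes -0.09 (10 of 17 lower). LMNB1, a lamin of the nuclear shell, was at 63.3 to 69.6 FPKM in 2N and 56.9 to 66.9 in large clones (-0.06 ± 0.09, 95% confidence interval -0.27 to 0.15). Ribosome biogenesis genes had a median of -0.04 (24 of 41 lower). Cytosolic ribosomal protein genes had -0.05 (54 of 75 lower), with large clone 3 at -0.23 and the other large clones at 0.01 to 0.04. 2N clone 1 stood at 0.35 against the other 2N libraries for that list.

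The mitochondrially encoded mRNAs, which code for core subunits of the respiratory chain, were the lowest group, lower at 13 of 13 members with 10 at an unadjusted p under 0.05 and 8 without overlap. Among all tested genes 2.64% were lower at that p and 3.24% were lower without overlap. MT-CO3, a subunit of cytochrome oxidase, was at 3664, 2991 and 6187 FPKM in 2N and at 2798, 1872, 2488 and 1756 in large clones (-0.90 ± 0.28). MT-ND3, a subunit of complex I, was at 2518, 2555 and 3091 FPKM in 2N and at 1924, 1239, 1738 and 1117 in large clones (-0.88 ± 0.21, unadjusted p = 0.00296). MT-CYB, of complex III, was at 2453, 2091 and 2961 FPKM in 2N and at 1767, 1362, 1715 and 1433 in large clones (-0.67 ± 0.17). The 5 members whose ranges overlapped were MT-ND6, MT-ND4L, MT-ATP8, MT-CO1 and MT-ND5, where 2N clone 1 was the lowest 2N library. The median over the 13 mRNAs was -0.30, -0.74, -0.53 and -1.001 in large clones 1 to 4. The small clones stood at -0.53, -0.38 and -0.28. Against the other 2N libraries, the parental library and 2N clones 1 and 2 stood at 0.09, -0.54 and 0.33. That spread was wider than the class difference of -0.64, and 2N clone 1 was about as low as large clone 3. These mRNAs sit on 1 small genome and are cut from shared transcripts, so the 13 are not independent of each other.

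**Figure D3:**
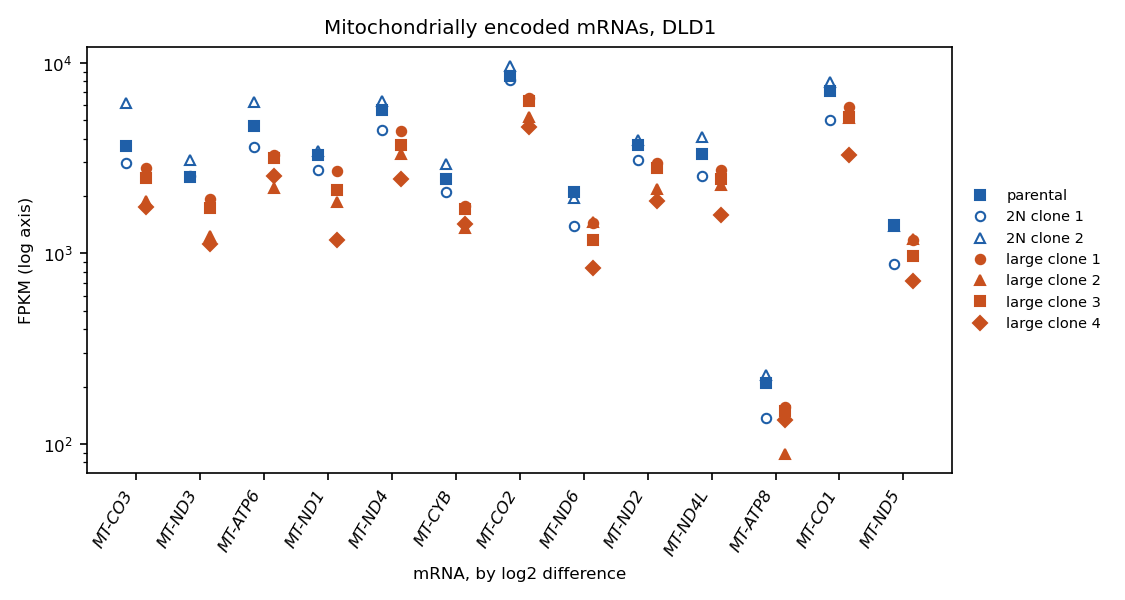
FPKM (log axis) of the 13 mitochondrially encoded mRNAs in the 3 2N libraries (blue) and 4 large clones (orange), ordered by log2 difference. The large clones lie below all 2N libraries in 8 of the 13 mRNAs, and MT-CO3 runs from 1756 to 2798 FPKM in large clones against 2991 to 6187 in 2N.

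As a share of all reads, mitochondrial genes took 4.90%, 3.79% and 5.58% in the parental library and 2N clones 1 and 2, and 3.85%, 3.15%, 3.47% and 2.42% in large clones 1 to 4. Large clone 1 was just above 2N clone 1, and the class difference of -1.53 percentage points had a two-sided exact permutation p of 0.114. With 4 against 3 libraries there are 35 arrangements, and the smallest p this design allows is 0.0571. The sum of all FPKM values was 281058 to 293189 in 2N and 251852 to 275754 in large clones, without overlap (exact permutation p = 0.0571, adjusted p = 0.267 over the 7 library measures compared). Without mitochondrial genes the sums were 228208 to 247651 and 225473 to 233425, and they overlapped. The nuclear genes of oxidative phosphorylation were lower at 39 of 45, with a median of -0.10. At an unadjusted p under 0.05, 1 member was lower, beside 2.64% of all tested genes lower at that p. That member was NDUFB8, at 3.57, 5.41 and 3.97 FPKM in 2N and at 3.22, 2.98, 3.25 and 3.07 in large clones (-0.35 ± 0.12). Among the 2N libraries the nuclear list ran from -0.17 in 2N clone 2 to 0.26 in 2N clone 1, so that spread exceeded the class difference.

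Stress response genes as a list had a median of 0.02 (23 of 38 higher), but 4 members were higher at an unadjusted p under 0.05 and without overlap, and 1 member, HSPB1, was lower at that level with overlap. The shares over all tested genes were 1.91% higher and 2.64% lower at that level, and 2.73% higher without overlap. HSPB1 was at 402, 553 and 435 FPKM in 2N and at 194, 291, 299 and 422 in large clones (-0.66 ± 0.24). HSPA1A and HSPA1B, neighbours that both encode the inducible chaperone HSP70, were at 4.72, 5.78 and 3.86 and at 22.5, 33.3 and 27.3 FPKM in 2N. In large clones 1 to 4 HSPA1A was at 7.56, 7.69, 6.22 and 8.37 FPKM (0.56 ± 0.14) and HSPA1B at 34.8, 39.2, 37.2 and 51.3 FPKM (0.54 ± 0.17). The coding sequences of the pair are nearly identical, so the split of reads between them is uncertain. DDIT3 encodes CHOP, a transcription factor of the unfolded protein and integrated stress responses. It was at 3.47, 3.17 and 3.52 FPKM in 2N and at 5.55, 6.86, 4.35 and 4.41 in large clones (0.50 ± 0.14). HERPUD1, which helps clear misfolded proteins from the endoplasmic reticulum, was at 9.76, 10.1 and 10.96 FPKM in 2N and at 15.4, 17.1, 11.1 and 12.6 in large clones (0.40 ± 0.14). For DDIT3 and HERPUD1 large clones 1 and 2 were the highest, and for the HSP70 pair it was large clone 4.

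The promoters of HSPA1A, HSPA1B, DDIT3 and HERPUD1 are shown, the 4 stress response genes that were higher at an unadjusted p under 0.05. They belong to known stress pathways. The 4 were picked after their values were seen, from a list of 38 tested genes with a median of 0.02. Each run is the 250 bases before the annotated start in RefSeq (GRCh38.p14), 5′ to 3′ on the strand of the gene. HSPA1A lies at chr6:31815293-31815542 (plus strand), HSPA1B at chr6:31827488-31827737 (plus), DDIT3 at chr12:57520515-57520764 (minus, the first of its 2 annotated starts) and HERPUD1 at chr16:56931892-56932141 (plus). Capitals mark matches on either strand to the heat shock element core GAANNTTC, the CCAAT box (CCAAT) and the TATA box (TATAAA). They also mark the endoplasmic reticulum stress element, searched for as CCAAT and, after a gap of 9 bases, CCAC. The base after CCAC was left free. Its second form was searched for as ATTGG and, after a gap of 1 base, CCACG. Each stress element of either kind contains a CCAAT box, and those marks overlap.
HSPA1A: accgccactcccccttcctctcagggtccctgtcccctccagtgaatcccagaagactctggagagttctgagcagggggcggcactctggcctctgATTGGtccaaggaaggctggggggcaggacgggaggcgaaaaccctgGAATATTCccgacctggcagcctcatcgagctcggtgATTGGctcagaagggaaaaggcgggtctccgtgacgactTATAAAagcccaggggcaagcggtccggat
HSPA1B: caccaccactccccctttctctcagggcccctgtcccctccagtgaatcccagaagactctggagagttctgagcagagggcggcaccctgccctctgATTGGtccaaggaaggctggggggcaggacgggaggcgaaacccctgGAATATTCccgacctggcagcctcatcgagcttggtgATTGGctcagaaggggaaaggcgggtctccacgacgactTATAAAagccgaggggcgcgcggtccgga
DDIT3: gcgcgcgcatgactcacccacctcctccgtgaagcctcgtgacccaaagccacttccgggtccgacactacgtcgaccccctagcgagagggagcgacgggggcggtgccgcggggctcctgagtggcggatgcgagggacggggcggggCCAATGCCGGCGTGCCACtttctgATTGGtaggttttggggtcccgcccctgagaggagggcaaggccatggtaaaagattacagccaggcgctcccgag
HERPUD1: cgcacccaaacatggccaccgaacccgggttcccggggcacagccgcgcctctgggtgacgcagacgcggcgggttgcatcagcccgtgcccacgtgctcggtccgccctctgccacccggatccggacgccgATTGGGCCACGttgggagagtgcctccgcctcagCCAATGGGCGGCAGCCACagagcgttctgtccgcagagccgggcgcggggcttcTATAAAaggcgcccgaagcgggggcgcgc

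The promoters of HSPA1A and HSPA1B were identical at 235 of 251 aligned positions (93.6%), and each held 1 heat shock element core, 2 CCAAT boxes and 1 TATA box. DDIT3 held 1 endoplasmic reticulum stress element of the first kind, and HERPUD1 held 1 of each kind. Of 34788 distinct promoter windows of 250 bases, 5.79% held the heat shock element core, 32.0% a CCAAT box, 0.282% the first stress element, 0.0517% the second form and 10.8% the TATA box. A match describes letters in the window and shows no binding in these cells.

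Among other housekeeping and metabolic groups, proteasome subunit genes were lower at 30 of 32 with a median of -0.10. The list medians in large clones 1 to 4 were -0.06, -0.20, -0.01 and -0.11. The parental library and 2N clones 1 and 2 stood at -0.06, 0.21 and -0.12 against the other 2N libraries, a spread wider than the class difference. PSMD6 was at 15.96 to 18.8 FPKM in 2N and 12.9 to 16.3 in large clones (-0.24 ± 0.10). PSMC2, on chromosome 7, was at 42.7 to 49.1 FPKM in 2N and at 40.7, 31.6, 43.0 and 33.2 in large clones (-0.29 ± 0.13). Cholesterol and fatty acid synthesis genes were lower at 27 of 31 (median -0.14), with -0.25 in 2N clone 1 and 0.29 in 2N clone 2 against the other 2N libraries. INSIG1, the sterol sensor protein on chromosome 7, was at 15.3, 13.8 and 23.5 FPKM in 2N and at 14.2, 9.55, 9.66 and 11.3 in large clones (-0.59 ± 0.20). SCD, which puts the double bond into fatty acids, was at 65.9, 60.4 and 135 FPKM in 2N and at 38.3 to 70.3 in large clones (-0.61 ± 0.31), and 2N clone 2 was the highest library. NRF2 antioxidant targets were lower at 18 of 21 (median -0.17), with GSTM3 among them. TXNRD1, which keeps thioredoxin reduced, was at 82.6 to 101 FPKM in 2N and 62.0 to 85.0 in large clones (-0.29 ± 0.13). Glycolysis and hypoxia genes were lower at 21 of 32 (median -0.07). PDK1, which limits the use of pyruvate in mitochondria, was at 2.28, 2.29 and 2.42 FPKM in 2N and at 1.38, 1.75, 2.20 and 1.53 in large clones (-0.30 ± 0.12), without overlap.

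Whole chromosomes stood apart in single large clones. Over genes with a mean of 5 FPKM or more, the median log2 difference of a chromosome from the 2N mean, after subtracting the genome-wide median of that clone, reached 0.2 in size at 5 of the chromosome and clone pairs. Large clone 1 was low on chromosome 3 (-0.27 over 373 genes). Large clone 2 was low on chromosomes 7 (-0.31 over 311 genes) and 10 (-0.32 over 256 genes). Large clone 4 was low on chromosome 7 (-0.29) and high on chromosome 15 (0.21 over 187 genes). Large clone 3 had no such shift, and its largest median was 0.04 in size. No 2N library reached the limit against the other 2N libraries, where the largest was 0.09 in size, on chromosome 19 in 2N clone 1.

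The shifts ran the length of the chromosomes. In windows of 20 Mb with at least 15 genes, 8 of 8 windows of chromosome 3 were past -0.2 in large clone 1, 8 of 8 of chromosome 7 in each of large clones 2 and 4, and 7 of 7 of chromosome 10 in large clone 2. On chromosome 15 in large clone 4 it was 2 of 4 windows past 0.2, with window medians of 0.15 to 0.24. Between 91.3% and 93.0% of the genes lay on the shifted side. The cytoskeletal gene ACTB on chromosome 7 was at 1557, 1641 and 1739 FPKM in 2N, at 1075 and 1202 in large clones 2 and 4, and at 1503 and 1627 in large clones 1 and 3. On chromosome 10, PGAM1, a glycolytic enzyme, was at 161 FPKM in large clone 2 and at 199.9 to 297 in the other 6 libraries. On chromosome 3, RHOA, a switch of the actin cytoskeleton, was at 227 FPKM in large clone 1 and at 284 to 423 in the other 6. HSPB1, a small heat shock protein on chromosome 7, did not follow the pattern of its chromosome, with 194 FPKM in large clone 1, 422 in large clone 4 and 402 to 553 in 2N.

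Chromosome 7, low in 2 of 4 large clones, held many of the genes that were lower in the class comparison. Of its 592 tested genes, 73 were lower and 0 higher at an unadjusted p under 0.05, and 497 were lower in all. Chromosome 7 held 4.96% of tested genes and 23.2% of the 315 genes lower at that level. The difference of class means of the chromosome level was -0.17 (exact permutation p = 0.0571, adjusted p = 0.657 over chromosomes). No clone but 2 and 4 shifted there, with medians of -0.01 and -0.03 in large clones 1 and 3. Chromosome 21, where TFF1 and TFF3 lie, had as high a share of genes lower at that level, 15 of 121 (12.4%) against 12.3% on chromosome 7, with 2 higher. Its medians in large clones 1 to 4 were -0.06, -0.02, -0.04 and -0.09, none past the limit. Off the 4 chromosomes with a shift, 415 of 9866 genes (4.21%) had an unadjusted p under 0.05. The named genes SEMA3C, CFTR and MET lie on chromosome 7, GLYCTK, CAMK2N2 and MUC13 on chromosome 3, NDUFB8 and PIK3AP1 on chromosome 10, and KNL1 and BUB1B on chromosome 15. The part of the chromosome shifts in their differences was not tested, and the number of chromosome copies was not measured here.

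**Figure D4:**
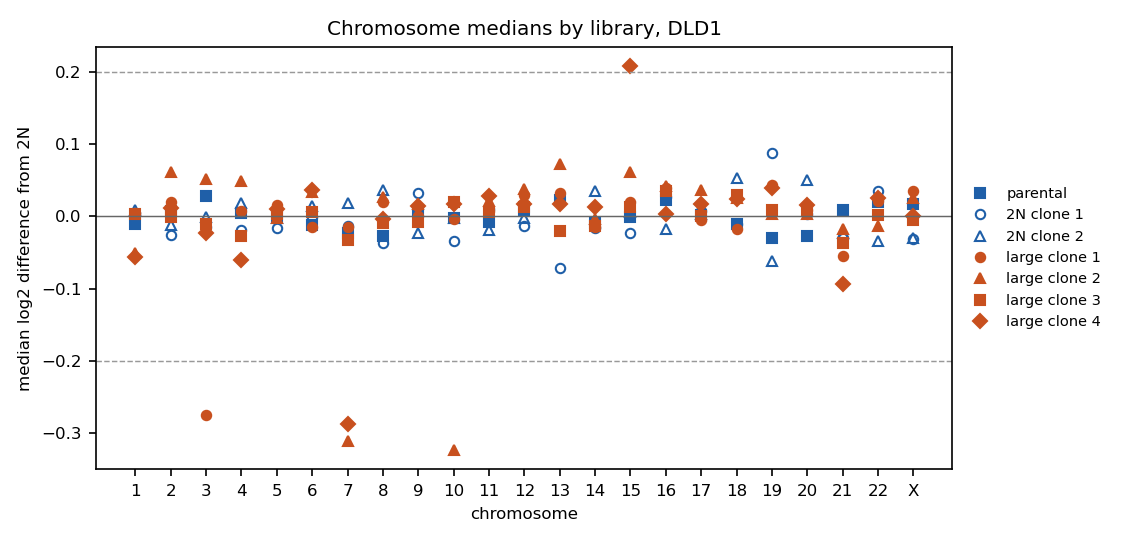
Median log2 difference of each chromosome in each library (2N blue, each against the other 2N libraries, and large clones orange, against the 2N mean), relative to the library's median over all genes, with dashed lines at -0.2 and 0.2. The 5 points past the lines are chromosome 3 in large clone 1, chromosomes 7 and 10 in large clone 2, and chromosomes 7 and 15 in large clone 4.

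Most strong departures from the 2N level belonged to single clones. Genes a log2 of 1 or more from the 2N mean numbered 128 in large clone 1, 259 in large clone 2, 53 in large clone 3 and 82 in large clone 4. The same count for each 2N library against the other 2N libraries was 104, 87 and 163, and only large clone 2 lay beyond them. The reference for a 2N library held fewer libraries than that for a large clone, so the counts are not on like terms. Of 131 genes higher by that much in any large clone, 116 were so in 1 clone and 0 in all 4. Of 316 genes lower, 267 were so in 1 clone and 1 in all 4.

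Genes that varied between large clones while steady in 2N (SD under 0.3) were led by NETO2, STAP2, PRSS8, BAHCC1 and PKIB. NETO2, an auxiliary protein of glutamate receptors, was at 1.07 FPKM in large clone 1 and at 11.4 to 15.7 in the other 6 libraries. BAHCC1, a chromatin protein, was at 0.0831 FPKM in large clone 1 and at 3.04 to 5.72 in the others. STAP2, a signalling adaptor, was at 0.318 and 0.153 FPKM in large clones 2 and 3 and at 2.84 to 5.35 in the others. PRSS8, the membrane protease prostasin, was at 25.4 FPKM in large clone 1, 1.38 in large clone 2 and 7.39 to 10.5 in the others. PKIB, an inhibitor of protein kinase A, was at 3.63 and 2.94 FPKM in large clones 1 and 2, at 12.7 and 15.4 in large clones 3 and 4, and at 5.24 to 7.96 in 2N.

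Each large clone also had genes outside the range of the other 6 libraries, picked after their values were seen. Large clone 1 had 31.3 FPKM of the calcium-binding gene S100P, against 2.66 to 10.6 in the others, and 0.441 FPKM of the centromere protein gene CENPV, against 6.13 to 12.3. Large clone 2 had 43.8 FPKM of TXNIP, which binds thioredoxin and limits glucose uptake, against 3.34 to 10.6, and 111 FPKM of the transcription factor gene KLF2, against 16.1 to 30.3. It had 1.54 FPKM of the matrix protein gene TGFBI, against 10.4 to 39.0, and 16.4 FPKM of ASS1, an arginine synthesis enzyme, against 55.2 to 92.4. Large clone 3 had 2.17 FPKM of PCP4, a calmodulin-binding protein, against 11.4 to 19.0, and 13.7 FPKM of POLRMT, the polymerase that transcribes the mitochondrial genome, against 27.3 to 30.02. Its mitochondrial mRNA median of -0.53 lay between those of the other large clones. Large clone 4 had 15.6 FPKM of REG4, a secreted lectin of enteroendocrine cells, against 0.0458 to 4.56. It had 16.6 FPKM of NMT1, which adds myristate to proteins, against 30.1 to 34.6, and 8.04 FPKM of CST7, a protease inhibitor, against 25.4 to 99.2.

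Gene length went with the differences, by little in the medians but plainly in the genes at an unadjusted p under 0.05. Over genes with a mean of 5 FPKM or more, the shortest of 5 equal length classes (up to 2470 bases) had a median difference of -0.07 and the longest (7243 bases and more) 0.02. At an unadjusted p under 0.05, 7 genes were higher and 81 lower in the shortest class, and 43 higher and 9 lower in the longest. The 2N library that stood apart in this was clone 1, at 0.15 for short and -0.11 for long genes against the other 2N libraries, with the large clones at -0.09 to -0.02 and 0.03 to 0.07. The gap between longest and shortest genes did not differ between classes beyond the spread (difference 0.09, exact permutation p = 0.4). Among the most extreme genes, NFAT5, ZNF609, CDK19, VPS13C and CNOT1 were higher and had lengths of 7492 to 19703 bases. TFF3, MT-ND3 and LCN2 were lower and had lengths of 346 to 1598 bases. Against this order, PRSS23 (11725 bases) and PCCA (7288) were long and lower, and CAMK2N2 (1362) was short and higher. The part of length in the gene differences was not tested.

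The same contrast was set against the other lines, which share no library with DLD1. HCT116, another colorectal line of the study, was fitted jointly with DLD1 over the same 11931 genes, so the variances were pooled over both lines. There 569 genes differed between 3 large and 3 2N libraries of HCT116, 318 higher and 251 lower (limma, adjusted p under 0.05). The DLD1 count came from a fit of DLD1 without other lines, so the counts of the lines are not from like fits. The difference between lines was tested directly, and 20 genes (0.168%) passed. All 20 passed for HCT116 in the joint fit. For DLD1 in its own fit, 0 of all 11931 genes passed, so 0 of these 20 was given beforehand. At the 19 genes plotted, the log2 differences in DLD1 ran from -0.42 to 0.15. FOS had a log2 difference of -2.76 in HCT116 and -0.04 in DLD1 (difference 2.72 ± 0.26, adjusted p = 0.00182). Further genes were the vesicle gene RAB26 (-1.40 and -0.01), the RNA-binding protein gene MEX3A (-0.99 and 0.15), the zinc finger gene ZNF711 (-1.45 and -0.21), the keratin gene KRT19 (0.92 and -0.13) and the noncoding RNA gene AL445524.1 (0.75 and -0.41), in HCT116 and DLD1 in that order. The 4N clones of HCT116 were made with 75 µM blebbistatin, so the drug and the line cannot be told apart.

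**Figure D5:**
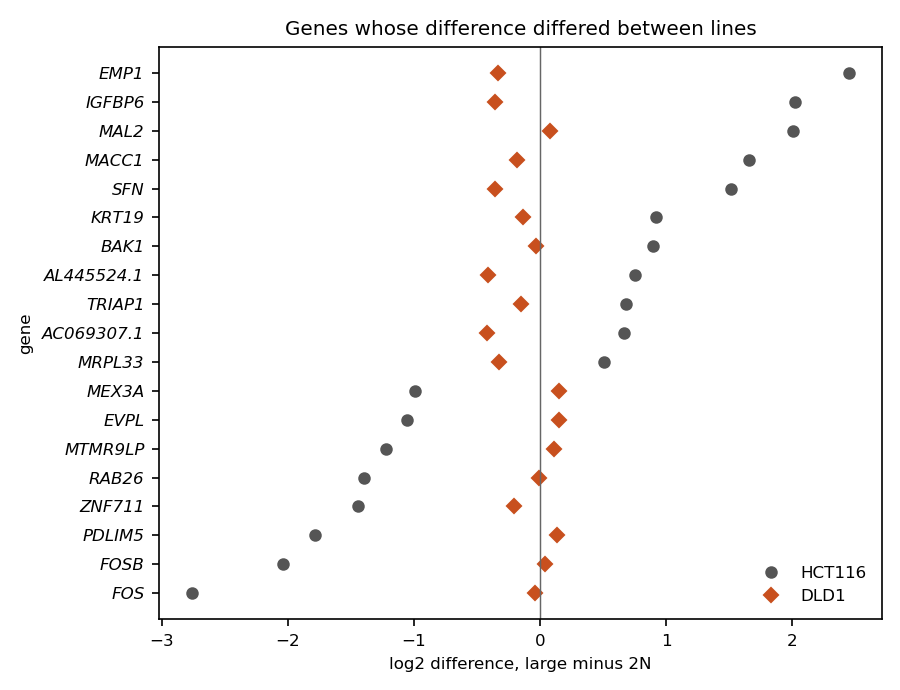
Log2 difference between large and 2N libraries in HCT116 (grey circles) and DLD1 (orange diamonds) for 19 genes whose difference differed between the lines. The DLD1 values lie between -0.42 and 0.15, with FOS at -0.04 against -2.76 in HCT116 and KRT19 at -0.13 against 0.92.

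The count of 20 genes depended on single libraries of both lines. It was 1270 without HCT116 large clone 2, 73 without HCT116 large clone 3 and 16 without DLD1 large clone 3. Without each of the other libraries of either line, parental and 2N libraries included, it was 1 to 10, lowest without DLD1 2N clone 1. Against CAL51, a breast cancer line also treated with blebbistatin, 0 genes (0%) differed in the contrast by limma, with 812 at an unadjusted p under 0.05. For CAL51, in its joint fit with DLD1, 6 genes passed, 1 higher and 5 lower. The count against CAL51 was 1 without CAL51 2N clone 1, 3 without CAL51 large clone 1, 5 without CAL51 large clone 3 and 0 without each other library.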

How the data were processed

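Poly-A RNA of 26 cultures was sequenced, and the 7 DLD1 libraries above were analysed, with HCT116 and CAL51 used for the comparison of lines. The deposited table holds FPKM per gene, made by the authors. The submitters' processing notes name fastp, HISAT2 2.0.5, GRCh38, featureCounts 1.5.0-p3 and DESeq2, without their settings. The libraries were directional per the labels' protocols, but the strand setting of the counting is not given in the sources used here, so overlapping and antisense genes are uncertain. From low values, whole reads were recovered within 0.01 for the voom alternative, and depth is the sum of these reads. Reads are not unique molecules, so the worth of 1 read covers counting error only.

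Genes at 1 FPKM or more in at least 3 of 10 DLD1 libraries were tested on log2(FPKM + 1), which understates the change of low genes, as large minus 2N with limma 3.58.1 (R 4.3.3, intensity trend, Benjamini-Hochberg adjustment, threshold 0.05). The parental library counted as 2N. The scripts were tested on simulated data. Single values per library were compared with exact two-sided permutation tests in scipy 1.17.1 (Python 3.11.15). Chromosome medians used genes with a mean of 5 FPKM or more. The members, gene lists and tests were chosen with earlier results of these data known. Named genes were the 8 most extreme protein-coding genes (mean FPKM of 1 or more) in each direction, up to 4 members per list in order of p, the 3 highest expressed genes of each shifted chromosome, the 5 most variable between large clones, a fixed panel and the first 7 of the line comparison, and other genes are stated as picked after their values were seen. Of these named genes the text gives a selection, and some results are not reported here.

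Alternatives were pseudocounts of 0.1 and 0.5, no filter, a filter over the 7 libraries, a filter at 5 FPKM, fits over all 10 DLD1 or all 26 libraries, median-ratio rescaling, no intensity trend, voom on recovered reads, a replicate block and leaving out each library. The block was only a number shared by 2N and large clones 1 and 2.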

Additional observations from a re-analysis of the deposited data

Results flagged for a closer look

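A large clone stood apart from the other 3 by Dixon's test at 9 of 146 values tested, where chance at 1 in 20 gives 7.3. Large clone 1 stood apart at CENPE (5.07 FPKM) and at the chromosome 18 median (-0.0179). Large clone 2 was the low clone for the keratin list median (-0.65), for the junction list median (-0.36) and for chromosome 10 (-0.32). Large clone 3 was the low clone for the ribosomal protein list (-0.23). Large clone 4 stood apart at the NRF2 list median (-0.25), at the chromosome 16 median (0.0037) and in the number of genes at 1 FPKM or more (11508). Genes shown because 1 clone stood out were not put to that test.

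The difference between large and 2N libraries differed between DLD1 and HCT116, as DLD1 minus HCT116 in log2, by 2.72 at FOS, -1.16 at AL445524.1, 1.39 at RAB26, 1.14 at MEX3A, 1.23 at ZNF711 and -1.05 at KRT19. In HCT116, FOS was at 131, 110 and 171 FPKM in the 2N libraries and at 19.1, 19.3 and 19.0 in the large clones. The lines were treated with different drugs, and the drug and the line cannot be told apart.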

How the results depend on the processing

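The count of 0 called genes held under all alternatives run for it but 1. Without a filter on low values 1 of 30911 genes passed, the small nuclear RNA gene RNU6-611P (log2 difference -0.77, adjusted p = 0.0316 by limma), at 0.774, 0.738 and 0.610 FPKM in 2N and listed at 0 in all 4 large clones. Leaving out 1 library gave 422 to 678 genes at an unadjusted p under 0.05, and the smallest adjusted p was lowest, at 0.148, when large clone 3 was left out, followed by 0.455 for large clone 2. With all 26 libraries in 1 fit the smallest adjusted p was 0.281. Over all alternatives the number of genes at an unadjusted p under 0.05 ran from 297 (filter at 5 FPKM) to 1380 (no filter). Genes differing from HCT116 numbered 1 to 1270, and from CAL51 0 to 5, when each library was left out.

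Counted over named genes and alternatives together, 17 log2 differences changed sign and 1164 did not. When each library was left out, FOS ran from -0.176 (without 2N clone 2) to 0.141 (without the parental library), and it was positive without large clone 1 or 3 as well. CTNNA1 ran from -0.0526 (without 2N clone 1) to 0.0867 (without 2N clone 2), and was positive without large clone 1 or 4. CDKN1A ran from -0.79 to 0.294, MYC from -0.302 to 0.11 and MYH9 from -0.236 to 0.0235, each highest without 2N clone 2, and MYC was also positive without large clone 1. The class difference in genes at 1 FPKM or more ran from -57.5 to 21.5, highest without 2N clone 2. CTNNA1 was at 0.0112 with median-ratio rescaling and at 0.0117 with voom. With the replicate block FOS was at 0.00558, B2M at -0.000643 and LMNB1 at 0.078, and on the same 4 clones without it FOS was at 0.197 and HLA-B at -0.024. The block also took CDKN1A to -2.45 and MYC to -0.876, against -1.23 and -0.481 on the same 4 clones without it. The cause was not tested. Of the list medians, 67 moved by more than the spread and 617 did not, and of the chromosome 7 medians of large clones 2 and 4, 6 moved and 6 did not, between -0.262 and -0.341. Clones that share a number did not deviate together (correlations of -0.053 and -0.183), and the replicate block called 0 genes, with 693 at an unadjusted p under 0.05 against 796 without the block.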
